A study of Mus musculus with 8 samples.

Results

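Neural stem and progenitor cells (NSPCs) taken from the fetal mouse brain can be grown as neurospheres, floating colonies in which dividing cells, their stem cells among them, are kept in a proliferation medium. The data described here are the transcriptomes of 4 such cultures, the Kat7 intact group, out of 8 samples in the series. They were taken as the group that the labels call Kat7 intact, and they were read across 27179 genes. Each culture came from a C57BL/6 fetus at E14.5 with the genotype Kat7+/+ NesCreT/+. KAT7, also called HBO1, is a histone acetyltransferase, and both Kat7 alleles are wild type in these animals. They carry the Nes-Cre transgene all the same, in which regulatory sequence of Nestin, a gene of neural progenitors, drives Cre recombinase. The rest of the series deleted Kat7 with that transgene and is not analysed here. Replicates 1 and 2 were littermates (litter 1253), and replicates 3 and 4 came from litters 1286 and 1287. The part of the brain that was dissected and the growth factors of the medium are not given in the sources used here.

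RNA was read as 100-base single-end reads, and the deposited tables give read counts per gene. The 4 libraries held 13403953, 15887434, 18905228 and 22444359 counted reads, so that 1 read was worth 0.0459 to 0.0749 counts per 1000000 (CPM), and a gene without a read lay below 0.138 to 0.225 CPM, the value of 3 reads, by counting error alone. Levels are given as transcripts per 1000000 (TPM), that is, reads divided by the gene length in the table and scaled to 1000000 over all genes, because this unit lets genes of different length be set side by side. Values listed for 1 gene stand in the order of replicates 1, 2, 3 and 4, and ± is the standard deviation over these 4 cultures (n = 4). A gene was called expressed when it reached 1 TPM in all 4 cultures, not seen when none of the 4 had a read, and at trace level in between. Fewer cells of a type and less RNA per cell cannot be told apart in such bulk samples.

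Neural stem cells of the fetal brain, the radial glia, span the wall of the ventricle and are known for intermediate filaments, glial lipid and glutamate carriers and SOX transcription factors. They give rise to neurons, some of them through intermediate progenitors, and later to astrocytes and oligodendrocytes. Neurosphere cells are known to divide quickly and to keep the capacity to form all 3 kinds of cell once growth factors are withdrawn. The gene lists below follow those lineages, the regions of the neural tube, receptors and their ligands, metabolism and the machinery of chromatin.

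The labels were first set against the data. Kat7 (chromosome 11, 95271853 to 95310246 in RefSeq on GRCm38.p6) was read at 28.2, 24.5, 28.6 and 29.7 TPM in the 4 cultures, close to the middle of the 10 acetyltransferase genes listed. Xist, the RNA of the inactive X chromosome, had 0, 2, 0 and 1 reads, while Ddx3y, a gene of the Y chromosome, stood at 37.9, 40.4, 41.6 and 43.7 TPM. The 4 cultures did not differ in which of these sex-linked genes were read in number. The label calls the RNA polyadenylated, but RNAs that are known to lack a poly(A) tail were abundant. Rn7sk, Rpph1 and Rmrp, the RNA parts of 7SK, RNase P and RNase MRP, were the 3 highest nuclear genes, and together they took 1.89% to 3.00% of reads and 11.5% to 17.0% of all TPM. Of 63 replication-dependent histone genes, whose messages end in a stem-loop, 59 were expressed, led by H4c4 at 3448, 3961, 3110.4 and 3692 TPM. Of 132 small nucleolar and guide RNA genes, 106 were expressed. How the RNA was selected was not tested. Because these short RNAs and the mitochondrial genome take up much of that scale, protein-coding nuclear genes outside the histone clusters made up 47.4% to 55.6% of TPM, and each of their levels would be 1.8 to 2.11 times as high on a scale of those genes alone. That factor was lowest in replicate 3 and highest in replicate 4, 1.17 times apart, so small differences in TPM between cultures are not read. The ± of a TPM level and ratios of highest to lowest culture are on the TPM scale and include this shift. SDs of log2 CPM, and the ranking of genes by spread, are on the CPM scale.

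Replicate 3 stood apart in the genes with very few reads. It had a read for 19677 genes, against 17034 to 17949 in the others, and still 18798 when every library was thinned to the 13403953 reads of the smallest, against 16813 to 17666. In that culture 1839 genes were read that had no read elsewhere, compared with 159 to 418 such genes in each other culture. Olfactory receptor genes show the same excess in a class that brain progenitors are not known to use. Of 1126 such genes, 250 had a read in replicate 3 and 68, 29 and 39 in replicates 1, 2 and 4. Where one of them was read, the median was 1 read in replicates 1, 3 and 4 and 2 in replicate 2. The number of genes not seen at all was 6046 over the 4 cultures and 7885 without replicate 3. Among the members of the gene lists it was 75 and 131. Genes at trace level are therefore given with their reads per culture, or with the sum of their reads over the 4 cultures.

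Of the 27179 genes in the table, 12019 (44.2%) were expressed, 9114 lay at trace level and 6046 were not seen. Among protein-coding nuclear genes 11014 of 20970 (52.5%) were expressed, and this share is the background against which the lists are read. Of 2077 long noncoding RNA genes 290 were expressed. The median level of an expressed gene was 19.4 TPM. Of the expressed genes, 3751 had a mean from 1 to 10 TPM, 7080 from 10 to 100, 1139 from 100 to 1000, and 49 stood at 1000 or more. The 10 highest protein-coding nuclear genes took 3.42% to 3.91% of the reads of that class. The highest nuclear protein-coding genes outside the histone clusters were Actb (beta-actin) at 5240.0 ± 244 TPM, Fabp7 (the fatty acid binding protein of radial glia) at 4522 ± 814, Eef1a1 (a translation elongation factor) at 3758 ± 246, Ckb (brain creatine kinase) at 3547 ± 442, Rpl8 (a ribosomal protein) at 2114 ± 167 and Vim (vimentin) at 2026 ± 231. From the mitochondrial genome, mt-Rnr2 at 229394 ± 23735 TPM, mt-Rnr1 at 16455 ± 2184 TPM and COX1 at 5919 ± 1369 TPM were the highest, and that genome took 19% to 23.5% of reads.

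The sequence around gene starts, which the choice of cultures and thresholds did not use, went with the expression state across genes. RefSeq windows from 250 bases before to 50 after a start (build GRCm38.p6) were at hand for 20439 starts of 16784 protein-coding nuclear genes. The ratio of observed to expected CpG, which is near 1 where CpG is not depleted, had a median of 0.778 at the 11483 starts of expressed genes, 0.322 at trace level and 0.154 at the 3041 starts of genes not seen. Ratios over 0.6 were found at 73.7% of the windows of expressed genes, 5.43% of those not seen and 49.0% of all. TATAAA on the strand of the gene, anywhere in the window, was present at 4.06%, 21.0% and 8.13% of them (on either strand at 6.80%, 29.6% and 12.4%). Within the expressed genes the median ratio was 0.698 at 1 to 10 TPM, 0.802 at 10 to 100, 0.837 at 100 to 1000 and 0.772 at the 26 starts of genes at 1000 TPM or more. TATAAA was present at 4.08%, 3.47%, 7.21% and 34.6% of the windows in the same order. Neither feature went one way over all 4 classes. Genes of the histone clusters, some of which stand above 1000 TPM, were not left out here, and their part in the highest class was not tested. Genes are not replicates, and no p-value is given for this description.

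Windows of 5 genes are printed to show the range, from 150 bases before the start to 20 after it on the strand of the gene, with CpG and TATAAA in capitals. Olig2, Sox2 and Fabp7 were expressed, Neurog1 and Hbb-bs were not seen.
Olig2, chromosome 16: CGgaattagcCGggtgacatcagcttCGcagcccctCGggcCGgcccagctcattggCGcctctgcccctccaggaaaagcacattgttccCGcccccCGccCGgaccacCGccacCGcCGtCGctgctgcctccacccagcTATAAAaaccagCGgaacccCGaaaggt
Sox2, chromosome 3: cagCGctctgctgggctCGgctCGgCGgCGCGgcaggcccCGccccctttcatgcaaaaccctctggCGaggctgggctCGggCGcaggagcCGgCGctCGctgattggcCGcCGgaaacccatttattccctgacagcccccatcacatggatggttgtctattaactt
Fabp7, chromosome 10: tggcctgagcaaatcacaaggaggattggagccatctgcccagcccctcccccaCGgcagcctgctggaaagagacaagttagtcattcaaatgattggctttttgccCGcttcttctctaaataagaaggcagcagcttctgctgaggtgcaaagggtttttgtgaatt
Neurog1, chromosome 13: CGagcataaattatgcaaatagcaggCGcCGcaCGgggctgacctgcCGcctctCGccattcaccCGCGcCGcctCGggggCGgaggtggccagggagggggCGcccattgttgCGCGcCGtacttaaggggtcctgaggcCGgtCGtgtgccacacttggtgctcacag
Hbb-bs, chromosome 7: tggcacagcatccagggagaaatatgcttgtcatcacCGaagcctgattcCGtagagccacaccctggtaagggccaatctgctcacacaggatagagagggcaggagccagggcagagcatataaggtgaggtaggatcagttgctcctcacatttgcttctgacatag
These stretches lie at chr16:91225400-91225569 (plus strand), chr3:34649845-34650014 (plus strand), chr10:57784773-57784942 (plus strand), chr13:56252161-56252330 (minus strand) and chr7:103827909-103828078 (minus strand). Over the full window of 300 bases the ratio was 0.815 for Olig2 and 0.819 for Sox2, both transcription factors of progenitors. It was as high, 0.891, for the neurogenic factor Neurog1, which was not seen, and low, 0.276, for Fabp7, the gene of the second highest level among nuclear protein-coding genes outside the histone clusters. The adult beta-globin gene Hbb-bs had 0.108. The order of the class medians did not hold for each of these 5 genes.

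Genes of neural stem cells and radial glia made up the best represented lineage list, with 27 of 30 members expressed and a median of 31.6 TPM. Fabp7 was read at 3828, 4438, 5685 and 4138 TPM, with replicate 3 the highest. Vim, the filament protein of radial glia, stood at 2042, 2201, 2165 and 1694 TPM, lowest in replicate 4. Nes, which encodes nestin and gives the Cre transgene its name, was read at 529, 587, 441 and 468 TPM. Its highest culture was 1.33 times its lowest in TPM. Slc1a3, the glutamate transporter GLAST, was less even at 354, 245, 639.8 and 316 TPM, and again replicate 3 was the highest. Sox2, the SOXB1 factor that marks neural stem cells, was read at 175, 188, 171 and 174 TPM. Its highest culture was 1.10 times its lowest in TPM. That is less than the 1.17 between the scale factors of replicates 3 and 4, so its evenness is not read. The extracellular matrix gene Tnc had 323 ± 56.9 TPM, the endothelin receptor gene Ednrb 167 ± 43.0 and the receptor phosphatase gene Ptprz1 142 ± 14.8. Lower in the same list were Pax6 at 12.5 ± 1.77 TPM, Sox1 at 10.8 ± 3.98, the Notch target Hes5 at 4.59 ± 2.10 and Nr2e1, the nuclear receptor TLX, at 2.01 ± 0.290. The 3 members that did not reach the threshold were Id4 (14, 6, 16 and 19 reads), Mdk (4, 2, 4 and 11) and Prom1 (9, 15, 12 and 9), the gene of the CD133 surface antigen that is often used to sort such cells. Of the 100-base windows of each of these 3 genes, 100% are unique among annotated transcripts. The strand setting of the counting is not given in the sources used here, and these 3 levels are taken as uncertain.

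**Figure D1:**
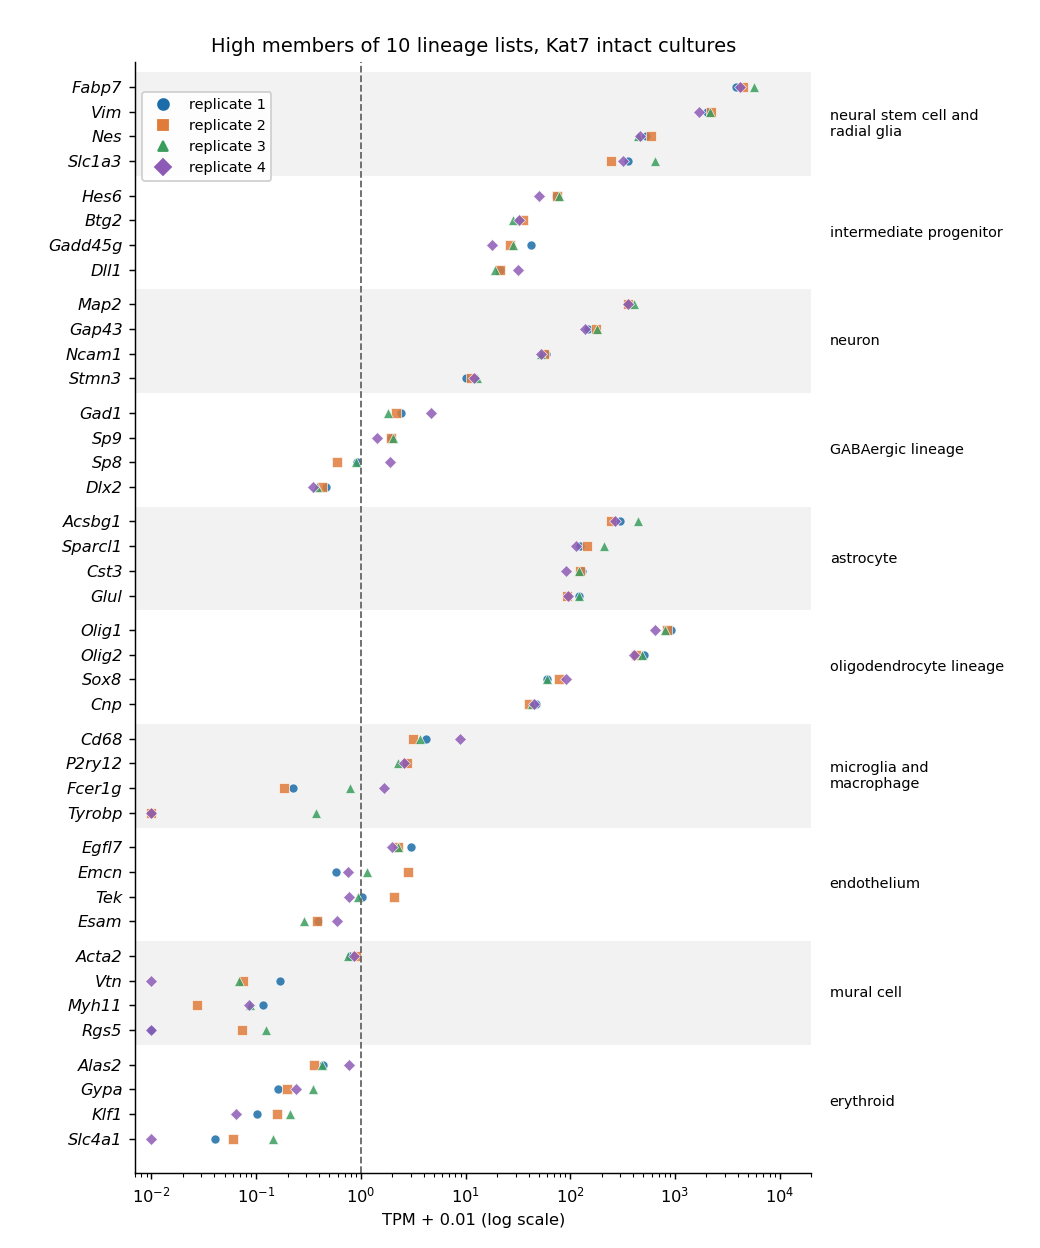
Levels of 4 of the highest members of each of 10 lineage lists in the 4 Kat7 intact cultures, as TPM + 0.01 on a log axis, 1 point a culture, with a dashed line at 1 TPM. Stem cell genes stand at or above 245 TPM in every culture, while the mural cell and erythroid genes shown lie under the line in every culture.

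In the neuron list 11 of 22 members (50%) were expressed, a share near the background, and Dcx, Rbfox3 and Stmn2, markers of migrating and mature neurons, were at trace level. The list was led by Map2 at 359, 355, 402 and 357 TPM, a microtubule-associated protein, and Gap43 at 147, 177, 180.3 and 139 TPM, a growth cone protein. The tubulin gene Tubb3 was far lower at 5.36, 6.66, 5.73 and 6.04 TPM. Doublecortin, the product of Dcx and a marker of migrating neurons, had 9, 17, 18 and 29 reads (0.138 to 0.266 TPM), Rbfox3, which encodes NeuN, had 1, 7, 3 and 12 reads, and Stmn2 had 0, 0, 0 and 1. None of the 12 genes that set the transmitter of mature neurons was expressed, and Th and Slc17a6 were not seen. The highest of these was Tph2, a serotonin synthesis gene, at 0.586, 0.778, 0.940 and 0.351 TPM. In the list of intermediate progenitors 8 of 13 (61.5%) were expressed, a share near the background. They were Hes6 (69.1 ± 12.4 TPM), Btg2 (32.4 ± 3.04), Gadd45g (28.9 ± 10.2), Dll1 (23.4 ± 5.68), Elavl4 (8.72 ± 3.61), Insm1 (4.12 ± 1.61), Sstr2 (1.54 ± 0.372) and Dll3 (1.5 ± 0.399). Of the factors that mark the series of cortical neurons, Neurog2 had 5 reads in the 4 cultures together, Eomes 29 and Tbr1 8, and Neurog1 had none. Of the 12 genes of the GABAergic lineage 3 passed the threshold, among them Gad1 (2.43, 2.14, 1.82 and 4.70 TPM) and Sp9 (1.94, 1.94, 2.01 and 1.40), while Dlx1 and Dlx2, the homeobox genes of that lineage, stood at 0.123 to 0.302 and 0.339 to 0.453 TPM and Dlx6 was not seen.

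The list of the oligodendrocyte lineage spanned a wide range of levels. Olig1 stood at 916, 835, 808 and 649 TPM and Olig2 at 507, 425, 488 and 409 TPM, and these basic helix-loop-helix factors, which act in both progenitors and oligodendrocytes, were highest in replicate 1 and lowest in replicate 4. Sox8 followed at 59.96, 77.3, 59.8 and 91.9 TPM. Cspg4, which encodes NG2, had 15.9, 9.66, 11 and 21.5 TPM and Pdgfra, the receptor of oligodendrocyte precursors, 1.99, 1.74, 1.97 and 3.79 TPM. The factor that commits cells to the lineage, Sox10, had 2, 1, 5 and 17 reads, and of the myelin genes Mbp had 13, Mog 4 and Mag 1 reads in the 4 cultures together. Cnp, a myelin-associated gene, passed at 46.6, 40.8, 43.3 and 45.4 TPM. In all 10 of 20 members (50%) were expressed, a share near the background, and their median SD was 0.474 on the log2 CPM scale, for 13 members with enough reads.

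Astrocyte genes were well represented and uneven between cultures. Of 20 members 15 were expressed, with a median SD of 0.456 on the log2 CPM scale over 17 members with enough reads, against 0.198 for the stem cell list. The median level was 9.76 TPM in the astrocyte list and 31.6 TPM in the stem cell list. Over all genes the SD was larger at low levels, and the part of level in this contrast was not tested. Replicate 3 was highest in 13 and replicate 2 lowest in 9 of the 15 in TPM, and in 10 and 9 in CPM. This was not particular to astrocyte genes. In CPM, replicate 3 was highest in 18 of 23 expressed genes of pyruvate dehydrogenase and the TCA cycle. The same held for 14 of 21 of cholesterol synthesis, but for 5 of 27 of the stem cell list. The share over all genes is not given here. Acsbg1, a lipid metabolism gene, was read at 297, 245, 447 and 270.0 TPM and Sparcl1, a secreted matrix protein, at 124, 145, 209 and 113 TPM. Aldoc, the aldolase of astrocytes, was at 62.5, 38.5, 76.8 and 48.9 TPM, Gja1, which encodes connexin 43, at 20.8, 27.2, 30.6 and 17.0 TPM and Apoe at 13, 6.90, 19.5 and 14.2 TPM. S100b was at 13.1, 4.51, 18.8 and 7.47 TPM, its highest culture 4.17 times its lowest. Markers of mature astrocytes were low in each culture. Gfap had 6, 3, 23 and 4 reads (0.0824 to 0.581 TPM) and the water channel gene Aqp4 16, 18, 39 and 21 reads. The glutamate transporter of mature astrocytes, Slc1a2, reached 9.06, 4.69, 14.7 and 5.71 TPM.

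Lists of cell types that a fetal brain dissection could bring along had few members expressed, and some markers of identity were among those that passed. The erythroid list had 0 of 8 members expressed, and its 4 globin genes were not seen in any culture, which in these libraries allows at most 0.138 to 0.225 CPM. Of these, 3 share sequence, with 36.7% (Hba-a1), 20.5% (Hba-a2) and 50.3% (Hbb-bs) of their 100-base windows unique among annotated transcripts, and their levels are uncertain. Among 14 genes of microglia and macrophages Cd68 (4.97 ± 2.65 TPM) and P2ry12 (2.57 ± 0.232 TPM) were expressed, while C1qa, C1qb and C1qc had no read and Csf1r had 1, 1, 1 and 1. Of 11 endothelial genes 1, Egfl7, was expressed at 2.37 ± 0.450 TPM (between 0 and 3 genes under other thresholds and scalings), while Pecam1 had 12 and Cldn5 1 reads in the 4 cultures together. No mural gene was expressed, and Pdgfrb, the receptor gene of pericytes, had 0, 0, 2 and 0 reads. Of the fibroblast and meningeal genes Foxc1 (17.3, 14.3, 16.3 and 10.1 TPM) and Prrx1 (6.20, 3.35, 5.50 and 3.84 TPM), both transcription factors, passed the threshold, while of the collagen genes Col1a1 had 15, Col1a2 7 and Col3a1 16 reads in the 4 cultures together. Ependymal and choroid plexus genes were represented by Foxj1 (8.06 ± 1.29 TPM), a factor of ciliated cells, and Dynlrb2 (6.39 ± 1.39 TPM), with Ttr, the transthyretin of choroid plexus, at 3, 0, 5 and 2 reads. Pmp22 (50.1 ± 9.22 TPM) and Egr2 (11.9 ± 10.3 TPM) were the expressed genes of the neural crest and Schwann list, and Foxd3 and Tfap2b were not seen. Klf4 (9.93 ± 3.91 TPM) and Esrrb (2.21 ± 0.392 TPM) were expressed among 11 pluripotency genes, while Pou5f1, the OCT4 gene, had 0, 0, 1 and 0 reads and Dppa3, Dppa5a, Zfp42 and Fgf4 none. None of 16 genes of liver, muscle, heart, gut or skin was expressed. 

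Of each regional list a smaller share was expressed at this threshold than of protein-coding nuclear genes (52.5%). The share of the telencephalon list was near that background, and its count of expressed members lay between 6 and 9 under other thresholds and scalings. Of the telencephalon list 6 of 13 (46.2%) passed, among them Lhx2 (13.8, 15.4, 14.8 and 13 TPM), Nr2f1 (15.3, 12.7, 14.47 and 12), Otx2 (11.4, 14.8, 11.1 and 6.86), Emx2 (8.35, 7.39, 10.8 and 4.62) and Dmrta2 (8.50, 3.78, 4.57 and 5.29). Otx2 and Emx2 were lowest in replicate 4. Six3, a gene of the anterior forebrain, had 1.22, 2.31, 1.09 and 0.615 TPM. Six3os1, the opposite-strand RNA gene beside it, had 9.44, 24.4, 10.5 and 2.77 TPM, and since the strand setting of the counting is not given in the sources used here, reads of both cannot be told apart where they overlap. Hesx1 was not seen, and of the cortical genes Emx1 and Fezf2 each had 1 read in the 4 cultures together. The dorsal list had 4 of 13 (30.8%) expressed, the ventral list 5 of 15 (33.3%) and the list of spinal cord and dorsoventral patterning 4 of 12 (33.3%). On the ventral side the highest member was Olig2, given above at 507, 425, 488 and 409 TPM. Meis2 was read at 14.4, 18.6, 13.6 and 16.7 TPM and Ebf1 at 15.5, 10.2, 9.47 and 11.4. Gsx2 had 2, 0, 0 and 2 reads and Nkx2-1, the factor of the medial ganglionic eminence, was not seen. Gsx1 had 0.631, 0.448, 0.928 and 1.42 TPM.

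Among genes of the diencephalon and more caudal regions few passed the threshold. En2, a gene of the midbrain and hindbrain boundary, was expressed at 4.55, 5.39, 3.58 and 2.63 TPM, as the 1 member of 12 in its list. Gbx2 (7.37, 5.24, 4.69 and 4.93 TPM), Irx3 (4.15, 2.74, 2.53 and 3.44 TPM) and Tcf7l2 (2.80, 3.74, 3.10 and 3.80 TPM) passed among 13 diencephalic genes. Dbx2, a homeobox gene of intermediate progenitor domains along the neural tube, was at 16.9, 3.15, 17.6 and 5.36 TPM, higher in replicates 1 and 3 than in replicates 2 and 4 with no overlap. Nkx2-2 was at 5.89, 0.789, 4.03 and 0.925 TPM and likewise higher in replicates 1 and 3. Of 39 Hox genes none was expressed, 23 were at trace level and 16 were not seen. Reads of Hox genes numbered 26, 5, 57 and 2 over the list, in 9, 5, 21 and 2 of its members. Hoxa5 was the highest with 13, 1, 20 and 0 reads. Hoxa4 had 2, 1, 7 and 0 reads. Replicates 1 and 3 held nearly all of these reads, and replicate 3 is the culture with the excess of single reads described above.

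Within transcription factor families the levels were set against each other as shares of the summed TPM, with ± in percentage points. Of the SOX family 12 of 20 were expressed. Within SOXB1, Sox2 took 87.2% ± 1.8, Sox3 7.49% ± 0.979 and Sox1 5.28% ± 1.8. Within SOXE, Sox8 took 78.4% ± 2.98, Sox9 21.3% ± 2.91 and Sox10 0.216% ± 0.174. Sox4 (65.5 ± 9.33 TPM) and Sox11 (51.3 ± 5.11 TPM), SOXC genes known from the neuronal lineage, shared their family with Sox12, and Sox6 led SOXD at 72.9% ± 3.24. All 4 NFI genes, regulators of glial competence, were expressed, with Nfib at 61.8, 59.6, 58.2 and 61.4 TPM and Nfia at 37.0, 33.8, 37.7 and 38.5 TPM. Among POU3 genes Pou3f3, which encodes BRN1, took 55.6% ± 3.23 and Pou3f1 18.5% ± 7.91, with Pou3f4 at 16.9% ± 3.83 and Pou3f2 at 8.96% ± 2.14. Pax6 was the expressed member of the 9 PAX genes. Pax9 stood at 2.17, 0.706, 3.84 and 0.228 TPM, above the threshold in replicates 1 and 3 and below it in the others. Among 12 LIM homeodomain genes Lhx2 and Isl2 (3.88 ± 0.732 TPM) were expressed.

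Receptor genes of the growth factor pathways that act on neural progenitors were present, often with 1 paralog in the lead. Of 58 receptor tyrosine kinases 32 (55.2%) were expressed, a share near the background. Egfr, the EGF receptor, was read at 101, 112, 104 and 113 TPM and made up 92.6% ± 0.536 of the ERBB family. Erbb2 and Erbb4 added 3.82% ± 0.704 and 3.46% ± 0.476. Fgfr1 was read at 72.9, 59.3, 78.9 and 59.3 TPM and made up 86.0% ± 3.69 of the FGF receptors, followed by Fgfr3 with 10.2% ± 3.43. Insr and Igf1r, for insulin and IGF, stood side by side at 14.1 ± 2.27 and 15.5 ± 1.82 TPM. Ntrk2, the receptor of BDNF, had 35.9, 26.6, 42.6 and 31.7 TPM, and Ddr1, a collagen receptor, and Ryk, a Wnt receptor, 107 ± 9.08 and 93.4 ± 14.9 TPM. Receptors of blood, vessel and immune cells lay at the other end, with Csf1r, Tie1 and Flt3 at trace level and Musk, the kinase of the muscle synapse, not seen.

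Of 39 secreted growth factor genes 16 (41.0%) were expressed. Ptn (pleiotrophin) was the highest at 934, 782, 1144 and 732 TPM, followed by Bmp7 at 74.0, 47.1, 76.1 and 66.4 and Vegfa at 46.7, 36.6, 34 and 43.4. Ligands of the EGF receptor were expressed in the cultures themselves, Areg at 32.9, 21.7, 25.6 and 26.7 TPM, Hbegf at 21.0, 19.4, 18.9 and 22.9 and Tgfa at 4.93, 2.47, 5.64 and 5.06. Egf itself was read at 0.286 to 0.952 TPM and Fgf2 at 0.604 to 0.845 TPM, both under the threshold, while Fgf1 reached 25.9, 16.9, 30.1 and 18.3 TPM. Pdgfa, the ligand of Pdgfra, had 25.3, 20.7, 24.3 and 15.1 TPM. Bdnf was low at 2.09, 1.95, 2.42 and 1.44 TPM, and Igf1, Igf2, Hgf and Gdnf were at trace level. Il6 was not seen. The matrix list was well filled, with 17 of 20 expressed, Tnc (297, 376, 256 and 364 TPM) and Bcan (337, 295, 315 and 334 TPM), which encodes brevican, at its head.

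The Notch, Wnt, BMP and Hedgehog pathways were each present on the receptor side. In the Notch list 12 of 18 were expressed. Notch1 took 61.9% ± 2.39, Notch2 25.5% ± 2.38 and Notch3 12.1% ± 2.89 of the receptors. The ligand Jag1 stood at 48.4, 35.1, 53.3 and 30.5 TPM and Dll1 at 21.4, 21.3, 19.2 and 31.8 TPM, the glycosyltransferase gene Lfng at 103, 112, 115 and 103 TPM, and the targets Hes1 at 78.3, 71.5, 61.9 and 38.4 TPM and Hey1 at 17.8, 23.0, 24.3 and 23.9 TPM. Notch4, Dll4 and Heyl, known from vessels, were at trace level or not seen. Of the Wnt receptors 11 of 12 were expressed, led by Fzd9 at 138, 26.9, 132 and 40.9 TPM, which was higher in replicates 1 and 3 than in replicates 2 and 4 without overlap. Fzd3 stood at 43.3, 53.7, 52.0 and 47.4 TPM. Wnt ligands numbered 4 of 19, namely Wnt5a (44.2, 51.3, 46.8 and 48.8 TPM), Wnt7a (23.0, 25.5, 26.5 and 26.9), Wnt7b (6.09, 4.60, 9.37 and 4.60) and Wnt5b (2.54, 2.92, 3.56 and 2.30), while Wnt1 and Wnt3a were not seen. Bmpr1a led the BMP and TGF-beta receptors at 105, 110.4, 117 and 106 TPM, with Tgfbr1 at 33.2 ± 4.33. Of the Hedgehog pathway Gas1 (190.4, 177, 157 and 103 TPM), Smo (67.4, 78.9, 77.8 and 55.5 TPM), Cdon (49.5, 72.7, 41.5 and 80.4 TPM) and Ptch1 (24.4, 26.1, 21.1 and 30.2 TPM), which bind or pass on the ligand, were expressed. Of the ligand genes Shh had 15, Ihh 12 and Dhh 29 reads in the 4 cultures together, and Gli1 had 1, 0, 2 and 5 reads. Whether the pathway was active was not tested.

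Of the transmitter receptors 8 of 18 ionotropic (44.4%) and 2 of 8 metabotropic (25%) glutamate receptor genes were expressed. The highest was Grm5, the metabotropic glutamate receptor 5, at 88.6, 81.5, 105 and 107 TPM, followed in its class by Grm3 at 7.08, 6.97, 8.26 and 16.6 TPM. Of the AMPA receptor subunits Gria2 was read at 52.2, 41.8, 56.2 and 86.4 TPM, Gria3 at 35.4, 31.7, 35.1 and 35 TPM and Gria4 at 32.6, 21.6, 43.1 and 24.9 TPM. Gria1 was lower at 0.211, 0.209, 0.465 and 0.463 TPM. Grin1, the obligatory NMDA receptor subunit, was at 0.529, 0.564, 0.535 and 0.952 TPM, under the threshold in all 4 cultures. Of 21 GABA receptor genes 5 were expressed, among them Gabrg1 (17.2, 19.2, 24.0 and 21.6 TPM) and Gabbr1 (11.4, 9.67, 10.8 and 12.8 TPM). For monoamines and acetylcholine 6 of 37 were expressed, Chrm3 (27.9, 24.3, 24.6 and 22.6 TPM), Chrna4 (9.05, 7.04, 10.9 and 12.1 TPM) and Adrb1 (12.1, 4.88, 9.83 and 5.52 TPM) first. No dopamine receptor was expressed. Among lipid, peptide and chemokine receptors Ednrb was at 171, 138, 227 and 134 TPM and the thrombin receptor gene F2r at 119, 103, 145 and 89.4 TPM. The nuclear receptors were led by Thra, the thyroid hormone receptor alpha, at 53.7, 47.2, 56.8 and 46.5 TPM and the glucocorticoid receptor gene Nr3c1 at 24.7, 22.8, 24.4 and 22.0 TPM, while Esr1 was not seen. Of the cytokine receptors Lifr was at 35.5, 39.4, 34 and 45.8 TPM, its partner Il6st at 28.3, 27.4, 28.4 and 23.8 TPM and Cntfr at 6.67, 5.86, 6.72 and 8.10 TPM, whereas Il6ra and Osmr were at trace level.

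**Figure D2:**
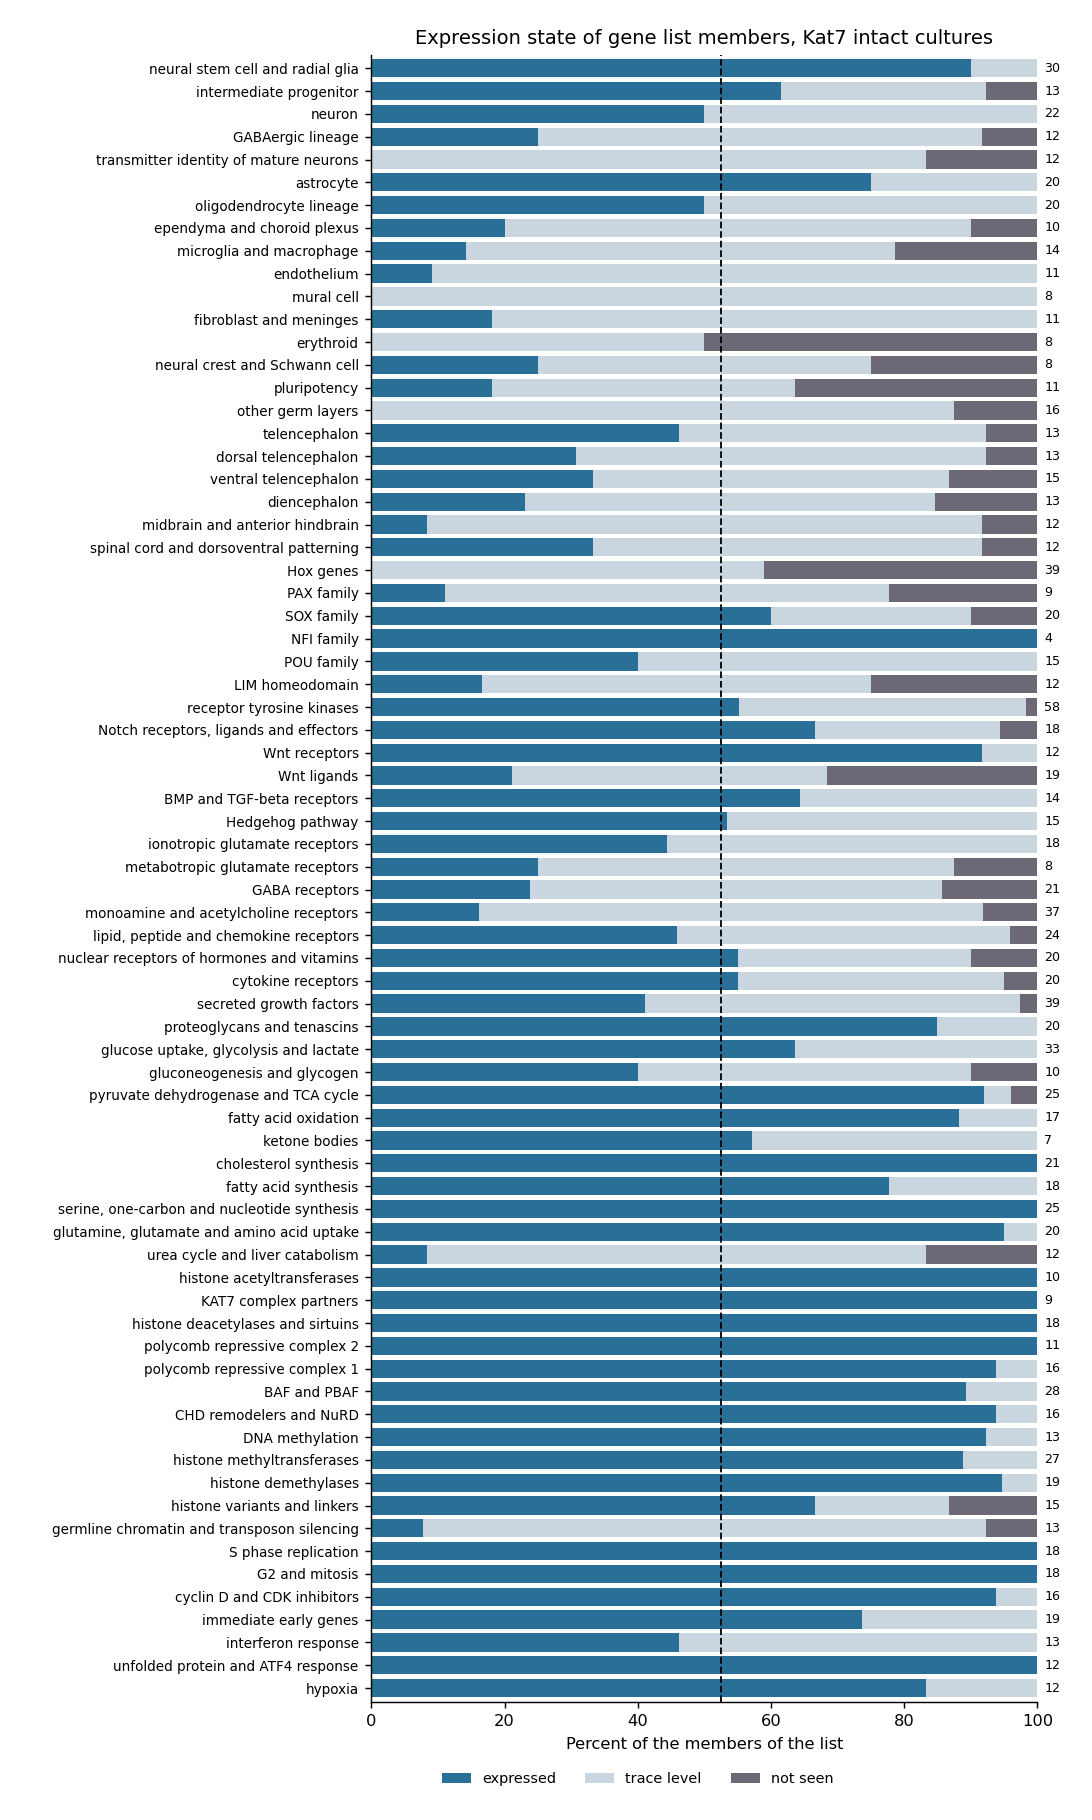
Members expressed, at trace level and not seen in each of 72 gene lists, as percent of the members found, with the number of members at the right. The dashed line marks the 52.5% of protein-coding nuclear genes that were expressed. The lists of replication, the TCA cycle and histone acetyltransferases lie to the right of it, and those of transmitter identity, erythroid cells, endothelium, Hox genes, other germ layers, the urea cycle and germline chromatin to the left.

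In glycolysis 1 isozyme led most steps. Ldha, the lactate dehydrogenase subunit that favours lactate, was read at 1209, 1313, 1247 and 1036 TPM and took 97% ± 0.447 of its family. Ldhb had 3.02% ± 0.445. Pkm at 1146, 1168, 1253 and 981 TPM, Aldoa at 958, 1015, 903 and 758 TPM and Tpi1 at 473, 489.6, 527 and 370.4 TPM were the other high members. Pklr, an isozyme known from the liver, held 0.0104% ± 0.00500 of pyruvate kinase. Of the hexokinases Hk1 had 66.0% ± 6.41 and Hk2 32.0% ± 6.34. Eno1 was 99.1% ± 0.354 of enolase and the neuronal Eno2 0.253% ± 0.126. Phosphofructokinase was divided between Pfkl (58.3% ± 6.02) and Pfkm (36.7% ± 4.41). Uptake was carried by Slc2a1, or GLUT1, with 78.6% ± 2.22, and Slc2a3, or GLUT3, with 20.7% ± 2.18, and lactate transport by Slc16a1, or MCT1, with 97.2% ± 0.917. The deposited level of Gapdh, 9.09, 7.93, 9.6 and 14.7 TPM, stands far below its neighbours in the pathway and is uncertain. Of the 100-base windows of its transcripts 79.1% are unique among annotated mouse transcripts, and Gapdh is known for its many near-identical copies in the genome. Pgk1 (75.2 TPM, 48.3% unique), Pgam1 (56.6 TPM, 66.1% unique), Eno1 (79.6% unique) and Pkm (87.7% unique) share that limit, and their family shares do too. Copies outside the annotated transcripts were not searched.

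**Figure D3:**
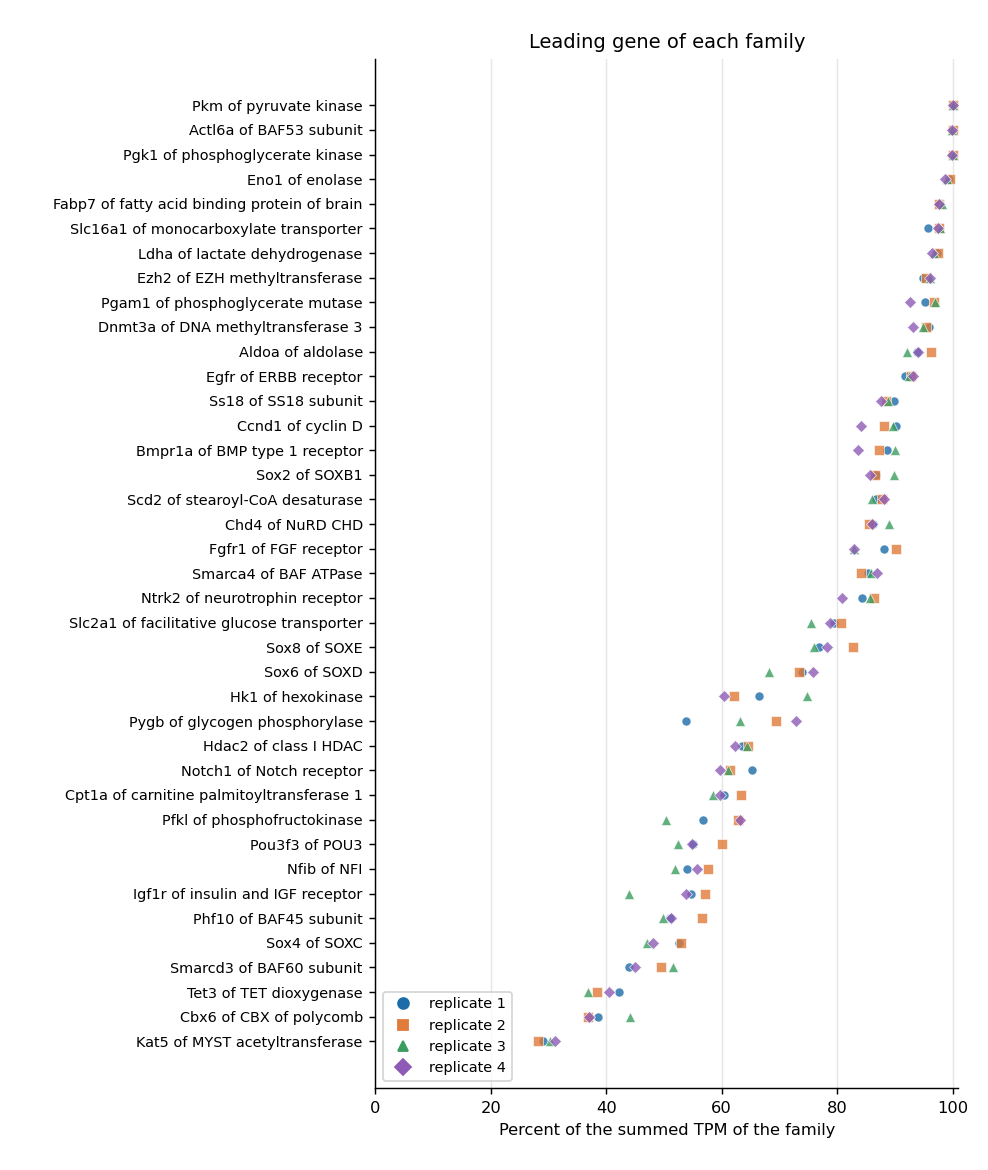
Share of the summed TPM of its family taken by the leading gene, in percent, for 39 families, 1 point a culture. In 35 of them the 4 cultures lie within 10 percentage points of each other, and the mean share of the leading gene ranges from 29.6% for Kat5 among MYST acetyltransferases to 99.99% for Pkm in pyruvate kinase.

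Mitochondrial and biosynthetic pathways were nearly complete. Of 25 genes of pyruvate dehydrogenase and the TCA cycle 23 were expressed, with a median of 153 TPM and Cs, citrate synthase, first at 330.2, 321, 404 and 300.2 TPM. The exceptions were the testis gene Pdha2, which was not seen, and Sdhd (6, 13, 13 and 13 reads), a subunit of complex II that every respiring cell needs, whose level is uncertain here although 100% of its windows are unique. Fatty acid oxidation had 15 of 17 expressed, and its entry step was divided between Cpt1a (60.5% ± 2.05) and the brain form Cpt1c (39.3% ± 2.02). All 21 genes of cholesterol synthesis were expressed, with Hmgcs1 at 494, 514, 737 and 531 TPM and Msmo1 at 257, 257, 350.2 and 227 TPM. Among desaturases Scd2, the form of the developing brain, took 87.2% ± 0.906. All 25 genes of serine, one-carbon and nucleotide synthesis were expressed, led by Psat1 (306, 333, 356 and 305 TPM) and Paics (261, 280.0, 320.0 and 267 TPM), and this list was among the tightest, with a median SD of 0.0936 on the log2 scale. In gluconeogenesis G6pc was not seen, Pck1 had 0, 0, 1 and 0 reads, and the mitochondrial Pck2 stood at 23.8, 24.9, 24.4 and 16.9 TPM. Of ketone body genes Oxct1 and Acat1, which use them, had 82.4 ± 9.91 and 137 ± 11.3 TPM. Of 12 genes of the urea cycle and liver catabolism 1, Asl, was expressed (14.2 ± 4.21 TPM).

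Writers, erasers and remodelers of chromatin were expressed almost without exception. All 10 histone acetyltransferases listed passed the threshold, from Kat6b at 5.36 ± 1.04 TPM to Hat1 at 107 ± 13.3 TPM. In the MYST family, to which KAT7 belongs, Kat5 held 29.6% ± 1.3, Kat6a 26.8% ± 1.07, Kat7 20.8% ± 0.658, Kat8 18.8% ± 1.31 and Kat6b 4.01% ± 0.681 of the summed level. All 9 partners of KAT7 complexes were expressed. Of the scaffold subunits Brd1 (31.6, 33.4, 35 and 37.8 TPM) and Brpf1 (26.7, 25.3, 26.7 and 35.8 TPM) exceeded Brpf3 (4.87, 4.39, 3.82 and 6.42 TPM), and Jade1 (14.3, 15.3, 13.5 and 17.7 TPM) and Jade3 (14.49, 17.4, 14.8 and 14.9 TPM) exceeded Jade2 (1.35, 1.21, 1.5 and 1.35 TPM), without overlap. The shared subunits Meaf6, Ing4 and Ing5 stood at 44.3 ± 4.57, 43.6 ± 2.35 and 19.4 ± 1.21 TPM. Of the windows of Ing4 70.7% are unique, which leaves its level uncertain. Among 18 deacetylases, all expressed, Hdac2 was first at 272, 276, 304 and 251 TPM. Hdac1 (18.3, 20.2, 21.8 and 21.0 TPM) was lower, but 75.1% of its windows are unique, which leaves its level uncertain.

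Polycomb genes were expressed with 1 exception in the lists. All 11 genes of polycomb repressive complex 2 were expressed, and Ezh2 took 95.6% ± 0.538 against 4.42% ± 0.538 for Ezh1. Eed and Suz12 were at 55.0 ± 3.66 and 50.7 ± 7.04 TPM. Of the 16 genes of complex 1 the exception was Pcgf2 (0.296, 0.601, 0.653 and 0.710 TPM), beside Bmi1 at 72.3, 78.4, 93.1 and 82.3 TPM and Rnf2 at 76.4, 88.6, 88.8 and 79.7 TPM. The BAF remodeler is known to swap subunits as progenitors become neurons. Actl6a, the progenitor form, was read at 105, 103, 114 and 111 TPM and the neuronal Actl6b had 1, 0, 1 and 1 reads. Phf10, a progenitor form as well, held 52.2% ± 3.01 of the BAF45 genes, with Dpf1 and Dpf3, of the neuronal complex, at 16.7% ± 1.14 and 13.2% ± 1.33. Ss18 held 88.7% ± 0.903 against 11.3% ± 0.903 for the neuronal Ss18l1. Smarca4, or BRG1, held 85.6% ± 1.15 of the ATPase. Chd4 held 86.7% ± 1.55 of the NuRD ATPases, and Chd5, a neuronal form, 0.196% ± 0.127. In Actl6a and Actl6b, Ss18 and Ss18l1, and Chd4 and Chd5, the neuronal form was the lower one in every culture.

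DNA methylation genes were led by the maintenance pair Dnmt1 (137, 127, 135 and 163 TPM) and Uhrf1 (73.9, 65.6, 66.1 and 75.1 TPM). Dnmt3a held 94.8% ± 1.22 of the DNMT3 genes and Dnmt3b 5.11% ± 1.22. Tet3, Tet2 and Tet1, which oxidise methylcytosine, stood at 11.5 ± 2.29, 10.04 ± 1.74 and 7.48 ± 0.810 TPM. Of 27 histone methyltransferases 24 were expressed. Prdm16, which is known from radial glia in the brain, had 2, 6, 4 and 3 reads, and Prdm9, a gene of meiosis, 1.58, 1.61, 1.58 and 2.25 TPM. Demethylases included both members of the X and Y pairs, Kdm5c (40.2 ± 1.60 TPM) and Kdm5d (18.8 ± 0.651 TPM), Kdm6a (15.6 ± 1.11 TPM) and Uty (16.1 ± 1.17 TPM). The histone variant genes Macroh2a1 and H2ax were at 206 ± 10.6 and 183 ± 69.5 TPM. H3f3b (2.70 TPM) and H2az1 (7.83 TPM) were listed low although every cell uses them, and both are uncertain, with 98.1% and 87.0% of windows unique. Of 13 germline chromatin genes 1 was expressed, Sycp3, a protein of the meiotic chromosome axis, at 5.24, 5.36, 8.71 and 5.38 TPM.

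Genes of DNA replication and mitosis were expressed throughout. All 18 S phase genes and all 18 genes of G2 and mitosis were expressed. Pcna was at 248, 257, 299 and 254 TPM, Mcm6 at 205, 223, 229 and 214 TPM, Top2a at 323, 323, 367 and 362 TPM and Mki67, the Ki-67 gene, at 142, 141, 147 and 182 TPM. The S phase list had the lowest median SD of all lists, 0.0722 on the log2 CPM scale. Ccnd1 led the D cyclins at 1849, 1598, 2052 and 1325 TPM and 88.1% ± 2.73 of its family, with Ccnd2, known from intermediate progenitors, at 10.9% ± 2.63. Cdk4 stood at 607, 653, 694 and 631 TPM and Cdk6 at 3.23, 4.09, 2.62 and 3.02 TPM. Among inhibitors Cdkn1a, the p21 gene, was high at 278, 316, 338 and 276 TPM and Cdkn1b at 57.5, 54.5, 52.8 and 54.8 TPM. Cdkn2a, the Ink4a and Arf locus, was expressed at 23.7, 21.3, 18.8 and 24.1 TPM, whereas Cdkn1c, the p57 gene, was at 0.865, 0.585, 0.689 and 0.432 TPM. Of the response lists the unfolded protein and ATF4 list was complete, with Hspa5 at 482, 468, 575 and 418 TPM and Asns, an ATF4 target, at 133, 170.0, 153 and 142 TPM. Adm, a hypoxia-responsive gene, was at 131, 129.8, 92.9 and 70.3 TPM while Car9, another, had 1, 1, 3 and 0 reads.

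The 4 cultures were alike in most genes. Over 12827 genes with enough reads, the SD of log2 CPM over the cultures had a median of 0.161, it exceeded 0.5 in 6.29% of genes and 1 in 0.382%. The biological coefficient of variation that edgeR fitted in common to these genes was 0.15. Spread depended on level, with a median SD of 0.344 from 1 to 5 CPM and 0.110 from 100 to 500 CPM. Pearson's r of log2 CPM across genes was 0.979 to 0.991 for the 6 pairs of cultures, with genes not independent. Which pair was closest depended on the measure. The log2 ratios of the littermates, replicates 1 and 2, had an SD of 0.336, against 0.297 for replicates 1 and 3, while their median absolute log2 ratio was the smallest of the 6 pairs at 0.143, against 0.151. Replicates 3 and 4 were farthest apart by both measures, with an SD of 0.446, and 557 of 12827 genes differed more than 2-fold. No pair agreed to within the sampling noise of its reads, since the median squared difference was 3.78 to 12.2 times what counting alone gives. It was lowest for the littermates and highest for replicates 3 and 4. This ratio grows with the number of reads. Replicates 1 and 2 were the smallest libraries and replicates 3 and 4 the largest, so the order of pairs in it is not read as likeness. The first principal component held 49.6% of the variance and placed replicate 4 at -30.6 and the other cultures at 1.86 to 18.7, and the second, with 31.2%, placed replicate 2 at -25.2 and the others at 4.98 to 12.5. Without replicate 4 the median SD was 0.129, and without replicate 1 the share of genes with an SD over 1 was 0.745%.

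**Figure D4:**
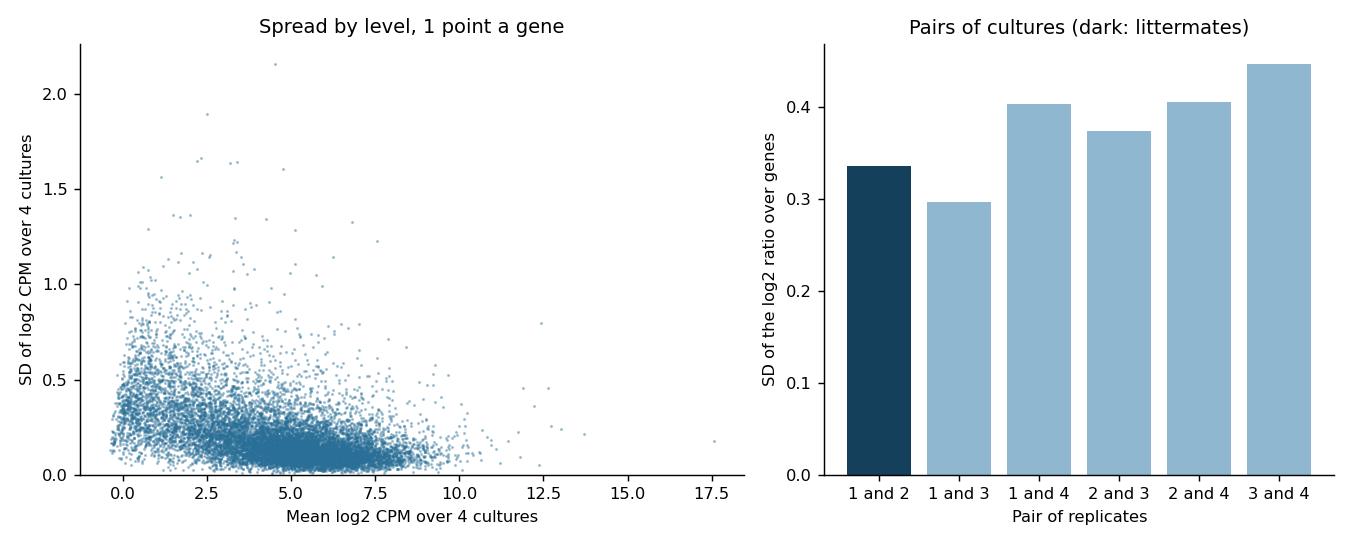
Left, the SD of log2 CPM over the 4 cultures against the mean log2 CPM, 1 point a gene (12827 genes). Right, the SD of the log2 ratio over the same genes for each of the 6 pairs of cultures, from 0.297 for replicates 1 and 3 to 0.446 for replicates 3 and 4, with the littermate pair in a darker tone.

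Many of the genes that varied most shared an order of the cultures. Genes were ranked by SD of log2 CPM among 10085 named genes with a mean of at least 5 CPM, and in 16 of the 20 with the largest SD both replicates 1 and 3 lay above both replicates 2 and 4. Among the 200 with the largest SD, 102 had that order, 19 the opposite, and 27 had both littermates above the other pair. Replicates 1 and 4 lay above the others in 33, replicates 3 and 4 in 13, and replicates 2 and 3 in 6. Each gene falls in 1 of these orders whatever its spread, and their shares over all 10085 ranked genes are not given here. Prex2, an activator of RAC signalling, was the first at 10.1, 2.73, 15.2 and 0.495 TPM (2.16 on the log2 scale). Selenop, a selenium carrier protein, was at 173, 55.2, 257 and 32.9 TPM and Chl1, a cell adhesion gene, at 84.6, 16.0, 107 and 30.5 TPM. Sostdc1, an inhibitor of BMP and Wnt signals, was at 22.1, 7.26, 21.2 and 3.45 TPM. Ank3, Mamdc2, Ccdc80, Afap1l2, Serpina3n, Septin4, St3gal6, Tm4sf1, Ier3, Dbx2 and Fzd9 followed the same order. The exceptions were Nr4a1, Junb, Six3os1 and Scand1. The order crosses the litters, since replicates 1 and 2 share one. What sets the order was not tested.

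**Figure D5:**
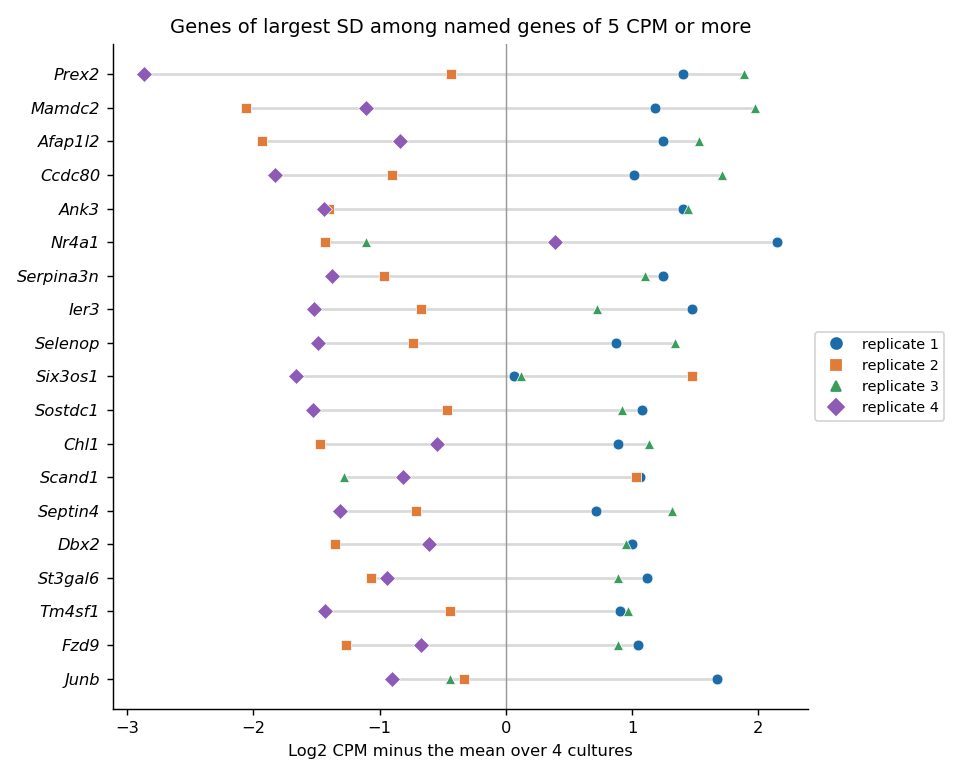
Log2 CPM minus the mean over the 4 cultures for 19 of the 20 genes of largest SD, 1 point a culture. Points of replicates 1 and 3 lie to the right of those of replicates 2 and 4 in 15 of the genes shown.

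Immediate early genes, which are known to respond within minutes to mitogens, had the highest median SD of the lists, 0.983. Fos was read at 82.9, 19, 22.7 and 16.6 TPM, Egr1 at 97.6, 31.5, 32.2 and 18.9 TPM, Junb at 37.0, 8.89, 9.06 and 5.97 TPM, Nr4a1 at 30.2, 2.38, 3.32 and 8.70 TPM and Arc at 32.5, 8.77, 7.24 and 13.4 TPM. Replicate 1 was the highest in each of these 5. Of the 14 expressed members replicate 1 was the highest in 11 in TPM and 11 in CPM, and the share over all genes is not given here. Interferon targets were low, with 7, 6, 48 and 1 reads for Ifit1 and 3, 1, 35 and 1 for Ifit3, and both were highest in replicate 3. Malat1, a nuclear noncoding RNA, was at 1334, 904, 1275 and 3217 TPM, highest in replicate 4. Lgals1, which encodes galectin-1 and was chosen after its values were seen, was at 1189, 1276, 1295 and 618 TPM, lowest in that culture. Mitochondrial reads were also highest in replicate 4, at 23.5% of reads against 19% to 21.8%. At the steady end were Rabgef1 (13.9, 13.5, 15 and 13.6 TPM), Ube2v1, Hp1bp3 (117, 112, 124 and 113 TPM), Rab11fip3, Uchl5, Eif4e2, Klc1, Nudt10, Rps6 and Nol8, with SDs of 0.00302 to 0.0118 on the log2 CPM scale. These are the extremes of a ranking over 10085 genes.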

How the data were processed

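The measured material was RNA of the 4 Kat7 intact cultures, which came from different fetuses. It was prepared with a TruSeq kit and read as 100-base single-end reads, per the labels' protocols. The protocols name total RNA while the label calls the RNA polyadenylated, and how it was selected was not tested. The authors deposited raw read counts per gene with a gene length, as the per-sample and series tables show. CASAVA 1.8.2, featureCounts and the build mm10 are named in the submitters' processing notes. Aligner settings and the strand setting are not given in the sources used here. The 4 columns of the deleted cultures were not used. Identifiers were matched to RefSeq symbols by Entrez number (25275 of 27179, and 1904 had none), and 1151 of 1152 symbols in the 72 gene lists were found, 9 of them by synonym. Genes, lists and tests were chosen with earlier results of these data known.

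TPM was computed per library over all rows of the table. CPM used TMM factors over the 4 libraries (edgeR 4.0.16, R 4.3.3), and SDs were taken on log2 CPM with a prior count of 2 among genes kept by filterByExpr with a min.count of 10. Dispersion was fitted with an intercept-only design. On simulated counts with a planted biological coefficient of variation of 0.15, 0.149 was recovered over 12827 genes. No groups were compared and no p-value was computed, and n = 4 measures the spread between these cultures. Libraries of 13403953 to 22444359 counted reads set the precision, and the floor of 3 reads covers counting error only.

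The genes named are the 20 highest nuclear and 5 highest mitochondrial genes, up to 6 members at each end of a list, all family members, the 20 most and 10 least variable genes of at least 5 CPM, and Kat7, Xist and Ddx3y. The text gives a selection of these, and any other gene it names was chosen after its values were seen. Unique windows are the 100-base windows of a gene's transcripts found in no other gene's annotated transcripts (GENCODE, GRCm38), for 1149 of 1151 list genes. Of these, 41 had under 90% unique. The limit is given beside some of the genes named and holds as well for Eef1a1 (83.7%), Pcna (89.9%), Ifit3 (68.3%) and Igf2 (40.7%). Promoter sequence came from RefSeq (GRCm38.p6). Alternatives were each library left out, other thresholds and units, other genes in the TPM scale, and other scalings (DESeq2 1.42.0 size factors among them), filters and prior counts. A TPM scale of protein-coding genes alone, families without members of under 90% unique windows, promoters without chemoreceptor genes, the spread over protein-coding genes alone, and CPM in place of TPM for genes with an outlying culture were added after seeing the data. Some genes of the lists are not reported here, in the text or the plots, though the counts over lists include them.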

Additional observations from a re-analysis of the deposited data

Results flagged for a closer look

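Of 296 genes tested over the 4 cultures, 37 (12.5%) had 1 culture whose gap to the nearest other, divided by the whole range, was above Dixon's critical value of 0.829. Chance marks about 1 in 20 groups of unselected values, but this share is not comparable with it, because 8 of the genes were read in 1 culture alone, which fixes the gap, and the genes named include those of largest SD. Of the 29 others, 9 had the same outlying culture past that value on the CPM scale, Pdgfra, Grm3, Brpf1, Mki67, Sycp3, Fos, Egr1, Junb and Ifit3, and 20 did not. This check on CPM was chosen after seeing the data. Those 20 are listed below by their TPM and are not read as differences between cultures. Replicate 4 was the outlying culture in 12 genes where it was high and 4 where it was low, replicate 3 in 11 where it was high, replicate 1 in 4 and 2, and replicate 2 in 2 and 2.

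In replicate 1 the immediate early genes Fos, Egr1 and Junb were high. Fos was at 82.9 TPM against 16.6 to 22.7, Egr1 at 97.6 TPM against 18.9 to 32.2 and Junb at 37.0 TPM against 5.97 to 9.06 in the other cultures. On the TPM scale but not on CPM, Kat8, an acetyltransferase gene, was at 26.7 TPM there against 24.2 to 24.5. Likewise on the TPM scale alone, Eed, a polycomb subunit, was at 49.6 TPM against 56.0 to 57.3, and Ss18l1 at 7.69 TPM against 8.95 to 8.97.

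Replicate 4 was high in Pdgfra at 3.79 TPM against 1.74 to 1.99 and in Grm3 at 16.6 TPM against 6.97 to 8.26. Mki67, the Ki-67 gene, stood at 182 TPM there against 141 to 147. Brpf1, a scaffold gene of KAT7 complexes, was at 35.8 TPM against 25.3 to 26.7. On the TPM scale alone, the outlying values of that culture were 7.71 TPM for the Notch target Hes5 against 3.19 to 3.93, 38.9 TPM for Kat6a, 172 for Chd4 and 2.25 for Prdm9. Likewise on that scale alone, Grin1 was at 0.952 TPM against 0.529 to 0.564. Below the others in TPM were Lgals1 at 618 TPM against 1189 to 1295, Pck2 at 16.9 TPM against 23.8 to 24.9, Sp9 at 1.40 TPM against 1.94 to 2.01 and Pklr at 0.0299 TPM, which was 1 read.

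Replicate 3 was high in Sycp3 at 8.71 TPM against 5.24 to 5.38 and in the interferon target Ifit3 at 1.8 TPM against 0.0420 to 0.210. On the TPM scale alone, Hmgcs1, a cholesterol synthesis gene, was at 737 TPM there against 494 to 531, Map2 at 402, Ddr1 at 121 and Oxct1 at 97.1. On the CPM scale the cultures stood at 1062, 1080.0, 1109 and 1078 for Map2, 220.3, 225, 242 and 226 for Ddr1 and 141, 152, 169 and 148 for Oxct1. Replicate 2 stood above the others, on the TPM scale alone, in Isl2 at 4.97 TPM and Jade3 at 17.4 TPM, and below them in Gria3 at 31.7 TPM and Dlx1 at 0.123 TPM.

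The remaining genes were read in 1 culture alone, by 1 read or, for Pdgfrb, by 2. In replicate 3 these were Mag at 0.0424 TPM, Pdgfrb at 0.0380, Pou5f1 at 0.0713, Emx1 at 0.0877 and Pck1 at 0.0393. In replicate 4 they were Stmn2 at 0.0441 TPM, Cldn5 at 0.0592 and Fezf2 at 0.0364.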

How the results depend on the processing

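No paired analysis was possible because the description holds 1 group of cultures and no comparison between groups was tested. The count of 12019 expressed genes ranged from 12092 to 12164 with 1 library left out, and was 11117 at a threshold of 2 TPM, 12876 at 0.5 TPM and 12158 at 1 CPM. List members not seen numbered 75 over all libraries and between 78 and 131 with 1 library left out, the highest without replicate 3. Each of the 72 lists kept its count of expressed members within 1.5 times when 1 library was left out. At 0.5 TPM, 4 lists did not, and at 2 TPM also 4. Leading genes were the same in all 40 families with 1 library left out. Taken culture by culture, 38 of 40 families had the same leader in all 4. Once members with under 90% of windows unique were left out, 36 families kept their leader. That count only reflects which leaders were left out themselves, Pgk1, Pgam1, Eno1 and Pkm among them, so it is no check of the shares. The median SD of log2 CPM, 0.161, was 0.129 to 0.168 with 1 library left out and 0.270 over all genes with at least 1 count, which adds genes with few reads. The percent of genes with an SD over 1, 0.382, was 0.431 to 0.745 with 1 library left out (highest without replicate 1), 1.28 over all genes with at least 1 count and 0.211 with a min.count of 50. The cause of the change without replicate 1 was not tested. The other scalings left the median SD between 0.161 and 0.167. Levels in TPM depend on which genes enter the scale, and 217 of 296 named levels moved by more than their SD when the mitochondrial genome was left out of the scale.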

Other observations

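Long noncoding RNAs with a name, bare gene models left out, were ranked by their mean level, a choice made after the values were seen. Malat1, a nuclear RNA, was the highest at 1334, 904, 1275 and 3217 TPM, with replicate 4 above the others. Bc1, a short neuronal RNA that is known to be made by RNA polymerase III, was at 329, 187, 363 and 232 TPM, and replicates 1 and 3 exceeded replicates 2 and 4. The host genes of small nucleolar RNAs followed, Snhg1 at 242, 199, 279.9 and 323 TPM and Snhg6 at 202, 169, 223 and 195 TPM, with Gas5 at 94.8, 80.5, 110.4 and 182 TPM highest in replicate 4. Pantr1, which lies beside the POU factor gene Pou3f3, was at 228, 193, 235 and 196 TPM, and its highest culture was 1.22 times its lowest. Tug1 was at 64.4 ± 4.60 TPM and Norad at 84.6 ± 9.24 TPM.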
